A study of Mus musculus with 18 samples.

Results

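The genes described here are the writers and erasers of DNA methylation, 9 genes chosen by name and found by Ensembl identifier in the count files of embryonic mouse hearts: Dnmt1, Dnmt3a, Dnmt3b, Dnmt3l, Tet1, Tet2, Tet3, Uhrf1 and Tdg. They are 9 of 49315 identifiers counted. Of the 9, 8 had enough reads to pass the filter on low counts that left 18885 genes for testing, and Dnmt3l did not. Hearts were dissected from wild-type embryos of the strain C57BL/6 at embryonic day 9.5 (E9.5, 3 libraries), E10.5 (4 libraries), E12.5 (4 libraries), E14.5 (3 libraries) and E16.5 (4 libraries). The labels name no transgene and no treatment, and each library pools male and female embryos. The files hold total counts of 30744015 to 45646538 per library. No label states that the libraries of one stage are from different litters, so p-values speak only of the spread between libraries, part of which may be technical.

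DNA methyltransferases attach a methyl group to cytosine, mostly where a guanine follows (CpG). Dnmt1 copies existing methylation onto the new strand behind the replication fork, and Uhrf1 binds the half-methylated site and brings Dnmt1 to it. Dnmt3a and Dnmt3b write methylation at sites that had none, and Dnmt3l, which has no catalytic activity of its own, assists them in germ cells and the early embryo. The dioxygenases Tet1, Tet2 and Tet3 oxidise 5-methylcytosine stepwise, and the glycosylase Tdg cuts out the later oxidation products so that base excision repair can restore cytosine. Transcript counts do not measure methylation, protein or enzyme activity, and in whole hearts fewer cells of a type and less RNA per cell cannot be told apart.

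In the mouse assembly GRCm38 the genes lie on 7 chromosomes. Dnmt1 (ENSMUSG00000004099) spans chr9:20907209-20959888 on the minus strand and Uhrf1 (ENSMUSG00000001228) spans chr17:56303321-56323486 on the plus strand. Dnmt3a (ENSMUSG00000020661) spans chr12:3806007-3914443, Dnmt3b (ENSMUSG00000027478) chr2:153649450-153687730 and Dnmt3l (ENSMUSG00000000730) chr10:78041947-78063622, all on the plus strand. Tet1 (ENSMUSG00000047146) spans chr10:62804570-62908996, Tet2 (ENSMUSG00000040943) chr3:133463679-133545139 and Tet3 (ENSMUSG00000034832) chr6:83362373-83459084, all on the minus strand. Tdg (ENSMUSG00000034674) spans chr10:82629828-82650799 on the plus strand. All 9 are protein-coding. Whether reads were counted by strand is not given in the sources used here, which leaves the counts of overlapping genes less certain. Exons of Tdg share 6.83% of their length with Glt8d2 on the opposite strand, and those of Dnmt3l share 2.24% with Aire. The overlaps of Dnmt3a with Dnmt3aos (0.799%) and of Tet2 with Gm42567 (0.255%) are smaller. Related genes and pseudogenes had few reads assigned to them, which does not tell how reads matching several places were treated: the mean level of Dnmt3c was at most 0.183 CPM (counts scaled to the size of the library) at any stage, that of Tdg-ps at most 0.159 CPM, and Dnmt3a-ps1 had no count in any library.

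Start-site windows of 300 bases (250 before and 50 after an annotated start) were taken from RefSeq, build GRCm38.p6. There were 16 such windows for the 9 genes among 32851 for all genes. They were searched on both strands for 4 spellings of the E2F site (TTTGGCGC, TTTGCCGC, TTTCGCGC and TTTCCCGC), since E2F factors drive genes of DNA replication, and for the CCAAT box (CCAAT) and the GC box (GGGCGG). An E2F spelling occurred in 2.26% of all windows, a CCAAT box in 37.4% and a GC box in 35.7%. Among the 16 windows an E2F spelling occurred in 1 of 3 windows of Dnmt1 and in 1 of 2 windows of Uhrf1. These 2 windows are printed because they hold an E2F spelling, and because both genes act together at the replication fork and moved together below. The windows of Dnmt3b, Tdg and Tet2 are printed beside them, since the first 2 fell most between E9.5 and E16.5 and Tet2 rose. Capitals mark the E2F spellings, and each sequence reads 5′ to 3′ along the strand of its gene. The coordinates are chr9:20952574-20952873 (minus strand) for Dnmt1, chr17:56304063-56304362 (plus) for Uhrf1, chr2:153649199-153649498 (plus) for Dnmt3b, chr10:82629588-82629887 (plus) for Tdg and chr3:133544341-133544640 (minus) for Tet2.
Dnmt1: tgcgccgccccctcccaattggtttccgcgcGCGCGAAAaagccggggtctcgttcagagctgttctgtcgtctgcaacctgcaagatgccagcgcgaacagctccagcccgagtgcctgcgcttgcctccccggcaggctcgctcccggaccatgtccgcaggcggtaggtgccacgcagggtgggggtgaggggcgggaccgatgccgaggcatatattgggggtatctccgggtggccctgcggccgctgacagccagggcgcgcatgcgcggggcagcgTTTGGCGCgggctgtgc
Uhrf1: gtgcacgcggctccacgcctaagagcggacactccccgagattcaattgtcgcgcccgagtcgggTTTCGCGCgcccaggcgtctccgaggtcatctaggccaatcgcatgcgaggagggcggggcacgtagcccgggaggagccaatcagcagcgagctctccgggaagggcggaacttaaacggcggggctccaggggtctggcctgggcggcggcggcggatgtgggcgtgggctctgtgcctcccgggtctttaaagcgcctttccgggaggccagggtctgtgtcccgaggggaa
Dnmt3b: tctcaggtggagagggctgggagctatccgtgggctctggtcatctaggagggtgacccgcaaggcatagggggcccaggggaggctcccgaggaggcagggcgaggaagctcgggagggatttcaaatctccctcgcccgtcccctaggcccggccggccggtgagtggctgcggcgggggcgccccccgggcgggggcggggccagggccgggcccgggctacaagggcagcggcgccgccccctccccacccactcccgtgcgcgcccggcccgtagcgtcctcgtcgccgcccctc
Tdg: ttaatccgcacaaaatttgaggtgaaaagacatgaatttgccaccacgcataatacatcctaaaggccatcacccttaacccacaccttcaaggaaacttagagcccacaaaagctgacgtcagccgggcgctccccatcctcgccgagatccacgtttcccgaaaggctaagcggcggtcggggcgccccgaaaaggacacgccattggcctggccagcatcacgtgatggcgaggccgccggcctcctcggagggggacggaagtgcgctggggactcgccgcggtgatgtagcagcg
Tet2: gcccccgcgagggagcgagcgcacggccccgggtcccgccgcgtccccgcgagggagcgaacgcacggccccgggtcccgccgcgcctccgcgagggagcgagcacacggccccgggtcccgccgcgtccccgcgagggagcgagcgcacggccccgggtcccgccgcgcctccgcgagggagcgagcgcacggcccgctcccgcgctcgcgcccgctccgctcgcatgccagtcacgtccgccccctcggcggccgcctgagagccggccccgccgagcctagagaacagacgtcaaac
In the Dnmt1 window, TTTGGCGC lay at bases 284 to 291, and the reverse complement of TTTCGCGC at bases 32 to 39. In the Uhrf1 window, TTTCGCGC lay at bases 66 to 73. None of these 3 matches overlapped a CCAAT or GC box. CCAAT matches numbered 3 in the Dnmt1 window, 2 in that of Uhrf1, 1 in that of Tdg and 0 in those of Dnmt3b and Tet2. GC box matches numbered 2 (Dnmt1), 3 (Uhrf1), 4 (Dnmt3b), 0 (Tdg) and 1 (Tet2). The Dnmt1 and Uhrf1 windows held 33 CpG each, against a median of 7 over all windows. Their GC content was 69.7% and 68.3%, against a median of 52.7%, so the share of E2F spellings over all windows is no background of like composition. The Dnmt3b window held 30 CpG, the Tdg window 26 and the Tet2 window 57, more than 99.8% of windows. A match of letters is a description of the sequence and no measured binding site, and the counts per gene do not tell which start a transcript used.

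Of the 18 libraries, 5 stood apart from the rest: replicates 2 and 3 of E9.5, replicates 1 and 2 of E10.5 and replicate 4 of E12.5. Their summed level of 8 transcripts typical of activated macrophages (Atp6v0d2, Cd74, Chil3, Gpnmb, H2-Aa, Itgax, Mmp12 and Mmp13), per library total, was 0.582 to 2.75 CPM, against 341 to 689 CPM in the other 13. The labels name no batch. Results for E9.5, E10.5 and E12.5 are therefore also given within the 13 and within the 5 libraries. The 13 hold 1 library of E9.5 and the 5 hold 1 of E12.5, and each lone library is then assumed to vary like those of other stages. Markers of heart muscle (Myh6, Myh7, Tnnt2, Actn2 and Nkx2-5) summed to between 12600 and 25500 CPM in every library. Markers of liver were at most 3.73 CPM in sum in all libraries but 1: Afp was at 45.3 CPM in replicate 2 of E9.5.

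At E16.5 the transcripts of the writers Dnmt1, Dnmt3a and Dnmt3b, of Uhrf1 and of Tdg were lower than at E9.5, by log2 fold changes of -1.57 to -0.635. Of the Tet erasers, Tet2 was higher (0.395), and Tet1 (0.143) and Tet3 (-0.129) did not pass the test. The threshold was a Benjamini-Hochberg adjusted p under 0.05 in the quasi-likelihood test of edgeR, fitted to all 18 libraries. Of the 8 genes tested, 5 fell and 1 rose, while 64.9% of all 18885 genes passed, 32.8% lower and 32.1% higher. The share of 6 in 8 is near this background. The libraries of E16.5 lay wholly below those of E9.5 for the 5 genes that fell, and 62% of all genes had such a gap in either direction. All 8 differed between some of the 5 stages (edgeR F test, adjusted p from 2.40e-11 for Uhrf1 to 0.0378 for Tet1), as did 71.7% of all genes. Among the 13 libraries the same 5 genes fell and 2 rose, Tet1 and Tet2, against 51.1% of genes passing there.

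**Figure D1:**
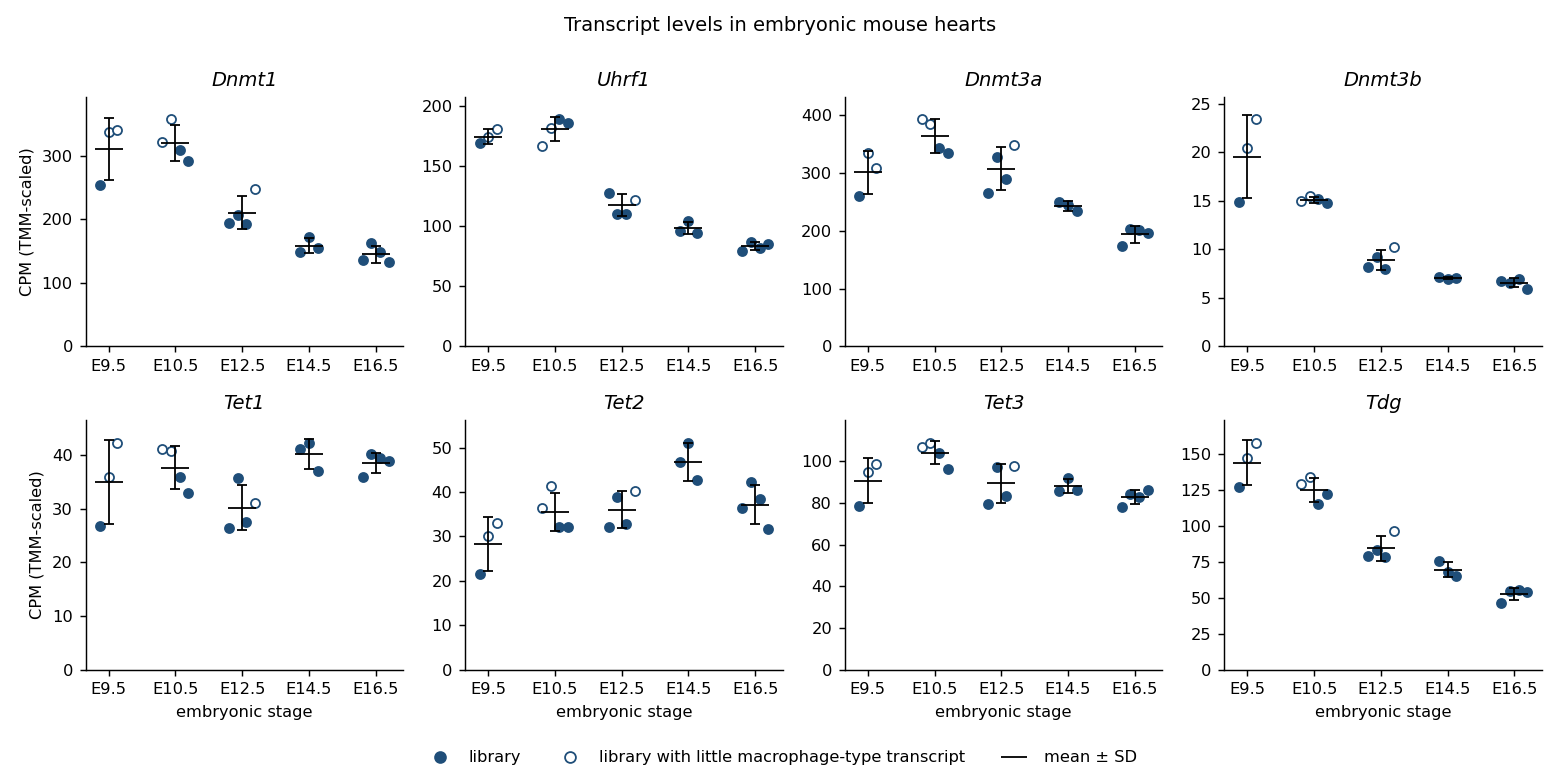
Transcript levels (CPM, vertical axis from 0) of the 8 tested genes in each of 18 heart libraries by embryonic stage, with mean ± SD as bars. Open circles are the 5 libraries with little macrophage-type transcript. Dnmt1, Uhrf1, Dnmt3a, Dnmt3b and Tdg lie lower at E16.5 than in any library of E9.5 or E10.5, while the E16.5 and E9.5 libraries of each Tet gene overlap.

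Dnmt1, the maintenance methyltransferase, was high until E10.5 and dropped between E10.5 and E12.5. It had 254, 337 and 340 CPM at E9.5, and 321, 357, 309 and 291 CPM at E10.5. It had 194, 206, 192 and 248 CPM at E12.5, 149, 172 and 155 CPM at E14.5, and 136, 162, 149 and 132 CPM at E16.5. Every library from E12.5 on was below every library of the 2 earlier stages, and the libraries of E9.5 and E10.5 overlapped, as did those of E14.5 and E16.5. Dnmt1 fell at E12.5 against E10.5 by 0.605 ± 0.103 on the log2 scale (± SE, edgeR adjusted p = 0.000125). It fell again at E14.5 against E12.5 by 0.404 ± 0.112 (edgeR adjusted p = 0.0188). In all, E16.5 was lower than E9.5 by a log2 fold change of -1.10 ± 0.111 (edgeR adjusted p = 4.09e-08). In the 13 libraries this value was -0.805 ± 0.110, and replicate 1 of E9.5, the lone library of its stage there, is the lowest of that stage.

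Uhrf1, the reader that guides Dnmt1 to half-methylated CpG, also dropped between E10.5 and E12.5 and was lower again at each later stage. It had 169, 174 and 181 CPM at E9.5, and 167, 182, 189 and 186 CPM at E10.5. It had 128, 110, 110 and 122 CPM at E12.5, 96.4, 104 and 94.6 CPM at E14.5, and 79.7, 87.1, 81.6 and 85.4 CPM at E16.5. From E12.5 on, no library of a stage reached the range of the stage before it. Uhrf1 fell by 0.619 ± 0.0648 at E12.5 against E10.5 (edgeR adjusted p = 4.56e-07), by 0.259 ± 0.0702 at E14.5 against E12.5 (edgeR adjusted p = 0.0164) and by 0.238 ± 0.0698 at E16.5 against E14.5 (edgeR adjusted p = 0.0219). It was the only one of the 8 genes besides Dnmt3a to pass in each of these 3 steps. The whole change, E16.5 against E9.5, was -1.07 ± 0.0695 (edgeR adjusted p = 7.63e-11), and -1.02 ± 0.0968 within the 13 libraries. Per kilobase of annotated exon, Uhrf1 and Dnmt1 were near parity: the ratio of their CPM per kilobase (RPKM) averaged 0.991 ± 0.144 (SD, n = 3) at E9.5 and 0.979 ± 0.122 (n = 4) at E12.5. It was 1.08 ± 0.0399 (n = 3) at E14.5, where no library stands apart, and all libraries lay between 0.856 and 1.16. The ratio was 0.856 to 0.922 in the 5 libraries that stand apart and 0.927 to 1.16 in the other 13, so these sets did not overlap.

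Dnmt3a, a de novo methyltransferase, had its highest mean at E10.5 and was lower at each later stage. It had 261, 334 and 309 CPM at E9.5, and 393, 385, 343 and 335 CPM at E10.5. It had 265, 327, 289 and 348 CPM at E12.5, 250, 245 and 234 CPM at E14.5, and 173, 204, 202 and 197 CPM at E16.5. The libraries of E10.5 lay just above those of E9.5, yet the difference of 0.273 ± 0.0986 did not pass (edgeR adjusted p = 0.0610). It was 0.382 ± 0.128 within the 13 libraries and did not pass there either (edgeR adjusted p = 0.0864), and 0.301 ± 0.0603 within the 5, where it passed (edgeR adjusted p = 0.0018). Dnmt3a fell by 0.245 ± 0.0908 at E12.5 against E10.5 (edgeR adjusted p = 0.0397), with overlapping libraries, and this call was lost within both sets (-0.208 in the 13 and -0.160 in the 5). It fell by 0.340 ± 0.0988 at E14.5 against E12.5 (edgeR adjusted p = 0.0245) and by 0.324 ± 0.0978 at E16.5 against E14.5 (edgeR adjusted p = 0.0254). The change of E16.5 against E9.5 was -0.635 ± 0.0976 (edgeR adjusted p = 1.12e-05), and -0.425 ± 0.112 within the 13 libraries.

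Dnmt3b, the other de novo enzyme, was low in all hearts and had the largest fitted fall of the 8 genes between E9.5 and E16.5. It had 14.9, 20.4 and 23.4 CPM at E9.5, and 15.0, 15.5, 15.2 and 14.8 CPM at E10.5. It had 8.14, 9.19, 8.01 and 10.2 CPM at E12.5, 7.20, 6.96 and 7.01 CPM at E14.5, and 6.79, 6.58, 6.97 and 5.93 CPM at E16.5, where 182 to 226 reads stand behind each value. The E10.5 libraries spanned only 14.8 to 15.5 CPM, and replicate 1 of E9.5 was among them. Dnmt3b fell by 0.369 ± 0.121 at E10.5 against E9.5 (edgeR adjusted p = 0.0389). The fall was seen within the libraries that stand apart and not within the rest: it was -0.495 ± 0.0966 within those 5 (edgeR adjusted p = 0.00148) and 0.0178 ± 0.164 within the other 13 (edgeR adjusted p = 0.971). The drop at E12.5 against E10.5 was seen in both sets, at -0.829 ± 0.122 in the 13 and -0.571 ± 0.126 in the 5, and was -0.765 ± 0.114 over all libraries (edgeR adjusted p = 3.02e-05). Later steps did not pass, with -0.334 ± 0.125 at E14.5 against E12.5 (edgeR adjusted p = 0.0813) and -0.104 ± 0.126 at E16.5 against E14.5 (edgeR adjusted p = 0.619). From end to end, Dnmt3b changed by -1.57 ± 0.124 (edgeR adjusted p = 1.18e-09), and by -1.17 ± 0.144 within the 13 libraries.

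Dnmt3l, the catalytically inactive partner, was barely read: 8 of 18 libraries had no count and the most in any was 6, in replicate 2 of E12.5. A count of 0 allows a level of up to 3 counts, which is 0.0657 to 0.0976 CPM in these libraries, for counting error only. Stage means of Dnmt3l ran from 0.0161 CPM at E16.5 to 0.0847 CPM at E14.5, and no test between stages was made on so few reads. The 4 libraries of E16.5 had 0 or 1 count and lay below the 3 of E14.5, which had 3 or 4. Markers of pluripotent and germ cells (Pou5f1, Nanog, Dppa3 and Dppa5a) had a sum of 0.266 to 1.60 CPM over all libraries, mostly from Nanog, which averaged 1.30 CPM at E16.5, against 0.417 CPM at E9.5.

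The balance of the 2 de novo genes shifted between E9.5 and E12.5. Over these stages mean Dnmt3b went from 19.5 to 8.9 CPM, and mean Dnmt3a from 301 to 307 CPM, with 364 CPM at E10.5. Dnmt3b made up 17.3 ± 2.18% (SD, n = 3) of the summed RPKM of Dnmt3a and Dnmt3b at E9.5, 12 ± 0.758% (n = 4) at E10.5 and 8.63 ± 0.370% (n = 4) at E12.5. It stayed at 8.66 ± 0.212% (n = 3) at E14.5 and 9.97 ± 1.02% (n = 4) at E16.5. Replicate 1 of E9.5, which is not among the 5 libraries that stand apart, had 15.6%, above every later library. The libraries of E9.5, E10.5 and E12.5 did not overlap in this share. These are ratios of levels within a library and were not tested.

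Tet1, the dioxygenase best known from embryonic stem cells, showed no net change that passed. It had 26.8, 35.9 and 42.2 CPM at E9.5, and 41.1, 40.8, 35.9 and 32.9 CPM at E10.5. It had 26.4, 35.7, 27.6 and 31.1 CPM at E12.5, 41.2, 42.3 and 37.0 CPM at E14.5, and 35.9, 40.1, 39.4 and 38.8 CPM at E16.5. E12.5 was the low point, below all libraries of E14.5. Tet1 fell by 0.320 ± 0.117 at E12.5 against E10.5 (edgeR adjusted p = 0.0372) and rose by 0.411 ± 0.125 at E14.5 against E12.5 (edgeR adjusted p = 0.0319). The fall was -0.205 ± 0.112 within the 13 libraries and was lost there (edgeR adjusted p = 0.195), while within the 5 it was -0.393 ± 0.0960 (edgeR adjusted p = 0.00676). E16.5 against E9.5 gave 0.143 ± 0.127 (edgeR adjusted p = 0.334) over all libraries and 0.532 ± 0.144 (edgeR adjusted p = 0.00475) within the 13. Replicate 1 of E9.5 was the lowest of its stage at 26.8 CPM, and without it the value was -0.00935.

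Tet2, the dioxygenase known as a tumour suppressor in blood cells, was the 1 gene of the 8 to rise over the whole course. It had 21.6, 30.2 and 33.1 CPM at E9.5, and 36.5, 41.3, 32.2 and 32.1 CPM at E10.5. It had 32.1, 38.8, 32.7 and 40.3 CPM at E12.5, 46.8, 51.1 and 42.6 CPM at E14.5, and 36.3, 42.2, 38.5 and 31.7 CPM at E16.5. The peak at E14.5 lay above all libraries of every other stage. E16.5 against E9.5 gave a rise of 0.395 ± 0.136 (edgeR adjusted p = 0.0164), with overlapping libraries, and 0.788 ± 0.151 within the 13. The call was lost without replicate 1 of E9.5 (0.241) and without replicate 2 of E16.5. None of the 4 single steps passed over all libraries: E10.5 against E9.5 gave 0.329 ± 0.136 and E12.5 against E10.5 gave 0.0186 ± 0.124 (edgeR adjusted p = 0.104 and 0.923). E14.5 against E12.5 gave 0.381 ± 0.133 and E16.5 against E14.5 gave -0.334 ± 0.133 (edgeR adjusted p = 0.0605 and 0.0892). Within the 13 libraries both of the later steps passed, at 0.442 ± 0.103 and -0.335 ± 0.0955 (edgeR adjusted p = 0.00622 and 0.0165).

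Tet3, the dioxygenase that also acts in the fertilised egg, was the most abundant Tet transcript. It had 78.4, 94.7 and 98.9 CPM at E9.5, and 107, 109, 104 and 96.4 CPM at E10.5. It had 79.7, 97.4, 83.2 and 97.8 CPM at E12.5, 85.9, 92.1 and 86.5 CPM at E14.5, and 78.2, 84.3, 83.1 and 86.1 CPM at E16.5. Neighbouring stages overlapped throughout. Tet3 fell by 0.218 ± 0.0796 at E12.5 against E10.5 (edgeR adjusted p = 0.0370), a call that was lost within the 13 libraries (-0.211, edgeR adjusted p = 0.0823) and within the 5 (-0.140, edgeR adjusted p = 0.131). E16.5 against E9.5 gave -0.129 ± 0.0862 (edgeR adjusted p = 0.197) over all libraries and 0.0838 ± 0.109 within the 13. Without replicate 1 of E9.5 it was -0.216 and passed (edgeR adjusted p = 0.0288). Tet3 held 51.4 ± 1.82% (SD, n = 4) of the summed RPKM of the 3 Tet genes at E16.5, against 58.2 ± 2.58% (n = 3) at E9.5. The share of Tet2 was 17.8 ± 1.03% at E9.5, and it averaged 26.0 ± 0.951% in hearts of E14.5 and 22.8 ± 2.15% in those of E16.5.

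Tdg, the glycosylase that removes oxidised methylcytosine, fell over the course, as the writers did. It had 127, 147 and 158 CPM at E9.5, and 129, 134, 115 and 122 CPM at E10.5. It had 79.2, 83.2, 78.4 and 96.9 CPM at E12.5, 75.6, 68.0 and 65.3 CPM at E14.5, and 46.4, 54.6, 55.7 and 54.3 CPM at E16.5. From E12.5 on, each stage lay wholly below the one before. Tdg fell by 0.568 ± 0.0861 at E12.5 against E10.5 (edgeR adjusted p = 3.68e-05) and by 0.401 ± 0.0931 at E16.5 against E14.5 (edgeR adjusted p = 0.00485), while -0.277 ± 0.0935 at E14.5 against E12.5 just missed (edgeR adjusted p = 0.0522). The whole change was -1.45 ± 0.0929 (edgeR adjusted p = 6.08e-11), and -1.27 ± 0.101 within the 13 libraries. The falls of Tdg, Dnmt1, Uhrf1, Dnmt3a and Dnmt3b at E16.5 against E9.5 passed under all 29 alternative analyses run for that comparison.

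**Figure D2:**
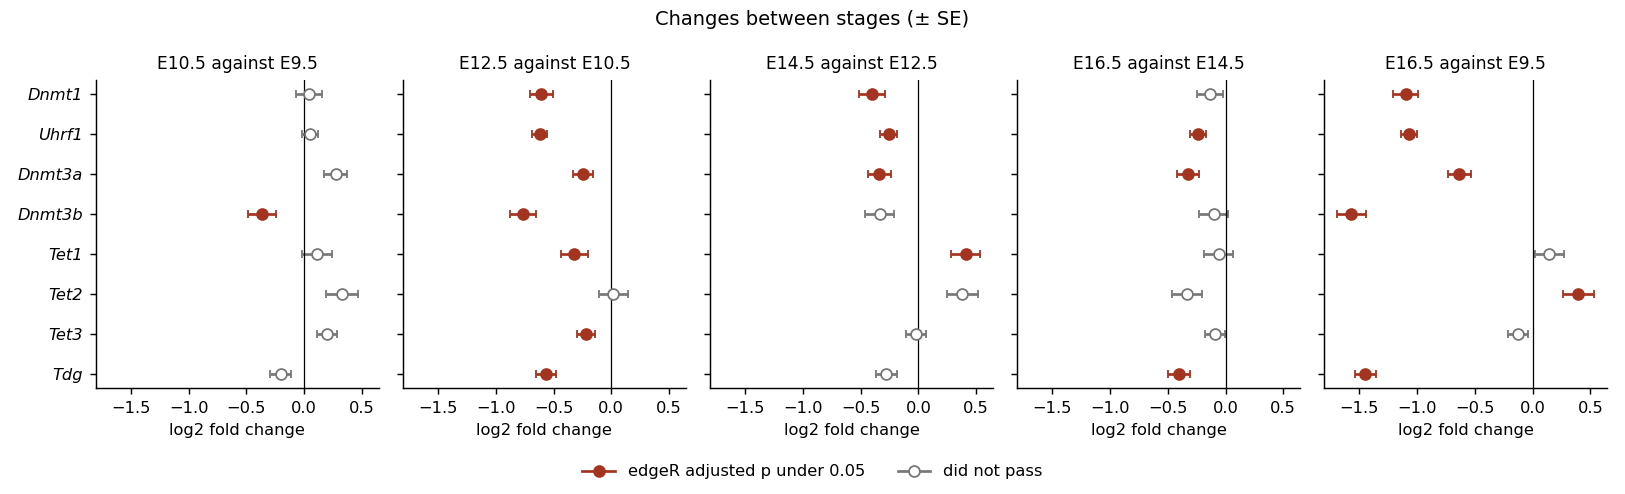
Log2 fold change ± SE (horizontal axis) of the 8 tested genes in the 4 steps between neighbouring stages and from E9.5 to E16.5, the later stage over the earlier. Filled red points passed at an adjusted p under 0.05. In the step to E12.5, 7 of the 8 genes fell, and in the last panel 5 genes lie between -1.57 and -0.635.

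Of the 4 steps between neighbouring stages, the one to E12.5 had the largest fitted falls of Dnmt1, Uhrf1, Dnmt3b and Tdg. At E10.5 against E9.5, 1 of the 8 genes fell (Dnmt3b) and none rose, against 18.2% of all genes passing and 7.62% lower. That call was lost without replicate 2 or 3 of E9.5 (-0.219 without replicate 3), without any 1 library of E10.5 and without replicate 2 of E14.5. Within the 13 libraries Tet2 alone passed at this step (0.577 ± 0.161, edgeR adjusted p = 0.04), with 6.1% of all genes passing there. Within the 5, Dnmt3a, Tet2 and Tet3 rose and Dnmt3b and Tdg fell, with 34.9% of all genes passing. At E12.5 against E10.5, 7 of 8 fell and none rose, whereas 38% of all genes passed, 18.1% lower and 20% higher. In the 13 libraries 4 of the 7 remained, Dnmt1, Dnmt3b, Uhrf1 and Tdg, with 28% of all genes passing. These same 4 also fell within the 5 libraries, together with Tet1, with 31.7% of all genes passing. The libraries of E12.5 lay wholly below those of E10.5 for those 4 genes, and 38.2% of all genes had such a gap in either direction. The other 3 falls each ended when replicate 1 or 2 of E10.5 or replicate 1 or 3 of E12.5 was left out. That of Tet3 also ended without replicate 3 of E10.5, and that of Tet1 without replicate 4 of E12.5. With 1 library left out, Dnmt3a lay between -0.31 and -0.18, Tet1 between -0.41 and -0.261 and Tet3 between -0.263 and -0.166. At E14.5 against E12.5, 3 genes fell (Dnmt1, Dnmt3a and Uhrf1) and 1 rose (Tet1), with 14.8% of all genes passing, 8.56% lower and 6.29% higher. Each of these 4 calls was lost without 1 of several libraries: Dnmt1 without replicate 4 of E12.5 or replicate 1 or 3 of E14.5, and Dnmt3a without replicate 2 or 4 of E12.5 or replicate 2 or 3 of E14.5. Uhrf1 was lost without replicate 1 of E12.5 or replicate 1 or 3 of E14.5, and Tet1 without replicate 1, 3 or 4 of E12.5 or replicate 1 or 2 of E14.5. The fold changes then lay between -0.466 and -0.315 for Dnmt1, -0.404 and -0.275 for Dnmt3a, -0.303 and -0.216 for Uhrf1 and 0.353 and 0.502 for Tet1. The 3 falls were also lost when counts were scaled by library totals only. The libraries of the 2 stages did not overlap for 7 of the 8 genes, all but Tet3, as for 26.2% of all genes. At E16.5 against E14.5, 3 fell (Dnmt3a, Uhrf1 and Tdg), with 18.9% of all genes passing and 8.74% lower. Tdg passed under all 29 alternatives, while Dnmt3a was lost without replicate 1 or 2 of E14.5 or replicate 1 of E16.5 (-0.349 to -0.278 with 1 library left out) and Uhrf1 without replicate 2 of E14.5 or replicate 1 of E16.5 (-0.264 to -0.194).

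**Figure D3:**
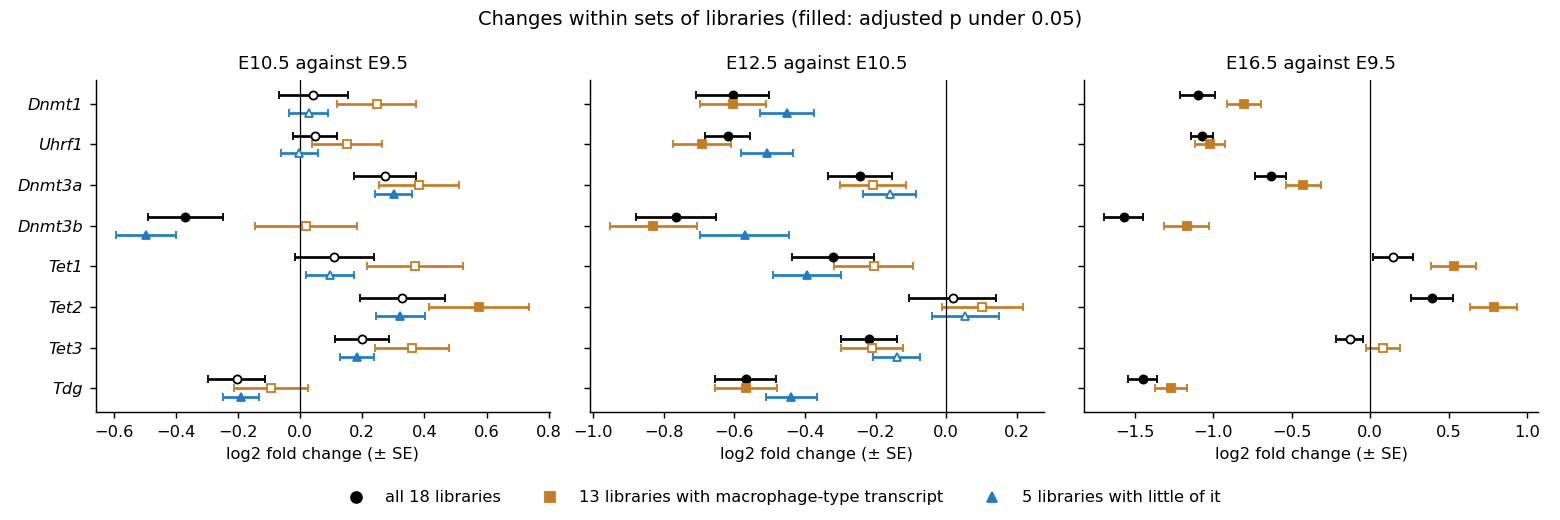
Log2 fold change ± SE (horizontal axis) of the 8 tested genes over all 18 libraries, within the 13 libraries with macrophage-type transcript and within the 5 with little of it, for 3 comparisons. Filled symbols passed at an adjusted p under 0.05. Dnmt3b at E10.5 against E9.5 splits between the sets (0.0178 in the 13 and -0.495 in the 5), while the falls of Dnmt1, Uhrf1, Dnmt3b and Tdg at E12.5 appear in both.

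Levels of different genes were compared per kilobase of exon. At E16.5 the order by mean RPKM was Dnmt1 and Uhrf1 (both 19.6), Dnmt3a (11.7), Tdg (9.82), Tet3 (4.97), Tet1 (2.49), Tet2 (2.20) and Dnmt3b (1.29), over 4 libraries. At E9.5 it was Dnmt1 (42.1), Uhrf1 (41.1), Tdg (26.8), Dnmt3a (18.1), Tet3 (5.43), Dnmt3b (3.83), Tet1 (2.26) and Tet2 (1.68), over 3 libraries. Dnmt3b stood below Tet1 and Tet2 at E16.5 and above them at E9.5, and Tdg stood below Dnmt3a at E16.5 and above it at E9.5. Dnmt1 and Uhrf1 overlapped at both ages. RPKM here divides by the length of all annotated exons together, so genes with long or many alternative exons come out lower.

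The summed level of the 3 catalytic methyltransferases was lower at later stages, while that of the Tet genes lay in the same range throughout. Dnmt1, Dnmt3a and Dnmt3b summed to 64.0 ± 9.52 RPKM (SD, n = 3) at E9.5, 68.2 ± 5.31 (n = 4) at E10.5 and 48.7 ± 5.71 (n = 4) at E12.5. They summed to 37.5 ± 1.63 RPKM (n = 3) at E14.5 and 32.6 ± 2.5 (n = 4) at E16.5. Tet1, Tet2 and Tet3 summed to 9.37 ± 1.5 RPKM in hearts of E9.5 and 10.8 ± 0.802 RPKM in those of E10.5. Later they summed to 9.45 ± 1.05 (E12.5), 10.7 ± 0.596 (E14.5) and 9.66 ± 0.417 RPKM (E16.5). The ratio of the sums averaged 6.84 ± 0.307 in hearts of E9.5, 6.32 ± 0.0966 in those of E10.5 and 5.16 ± 0.321 in those of E12.5. By E14.5 it was down to 3.52 ± 0.0807, and E16.5 hearts had 3.37 ± 0.125. Among the libraries that stand apart, the ratio was 7.13 and 6.52 in replicates 2 and 3 of E9.5, against 6.87 in replicate 1, and 6.24 and 6.43 in replicates 1 and 2 of E10.5, against 6.24 and 6.38 in replicates 3 and 4. At E12.5 it was 5.50 in replicate 4, above 5.23, 4.73 and 5.17 in the rest. No library of E12.5 overlapped E10.5 or E14.5, while E14.5 and E16.5 overlapped between 3.46 and 3.50. The ratio is a description of levels and was not tested.

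**Figure D4:**
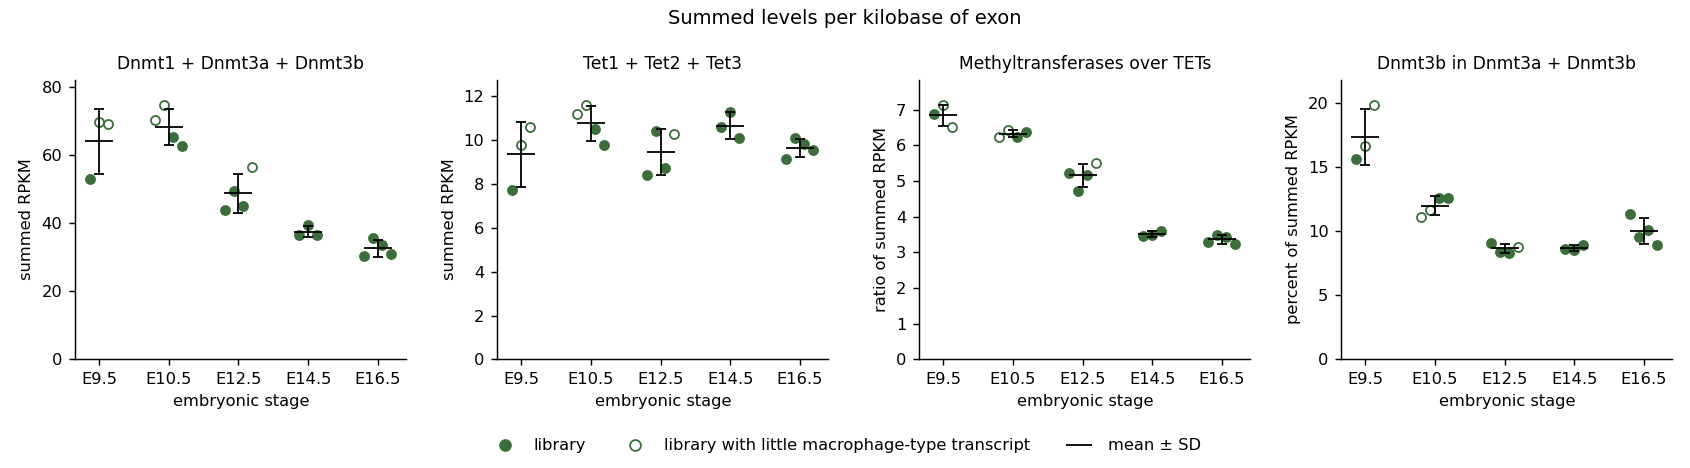
Summed levels per library by stage in RPKM (3 methyltransferases, 3 Tet genes), the ratio of these sums, and the percent of Dnmt3b in Dnmt3a plus Dnmt3b, with mean ± SD as bars and open circles for the 5 libraries that stand apart. The Tet sum stays between 7.71 and 11.6 RPKM, while the ratio is 3.37 on average at E16.5, against 6.84 at E9.5.

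The genes that work with Dnmt1 and Uhrf1 fell as well. Of 9 maintenance partners, 8 fell at E16.5 against E9.5 and none rose, with a median log2 fold change of -0.784, while the median of all 18885 genes was -0.00519 and 32.8% of them fell. Cdca7 and Hells, which form a chromatin remodeller needed for DNA methylation, fell by 1.36 ± 0.0714 and 1.39 ± 0.0971 (edgeR adjusted p = 3.24e-12 and 2.16e-10). Cdca7 had a mean of 26.5 CPM at E16.5, against 68.1 CPM at E9.5. Lig1, the ligase that joins new strands, fell by 0.784 ± 0.0645 (edgeR adjusted p = 2.31e-09). Uhrf2, the close relative of Uhrf1, fell by 0.741 ± 0.0656 (edgeR adjusted p = 6.52e-09), to 72.3 ± 1.16 CPM (SD, n = 4) at E16.5, against 121 ± 10.8 CPM (n = 3) at E9.5. Zbtb24, a zinc finger activator of Cdca7, was the 1 that did not pass (0.139 ± 0.0751, edgeR adjusted p = 0.111). Again 8 of 9 fell within the 13 libraries, where 51.1% of all genes passed in either direction.

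Genes of DNA replication and mitosis moved with these. All 29 replication genes listed (such as Mcm4, a subunit of the replicative helicase, at -1.32 ± 0.0613) fell at E16.5 against E9.5, with a median of -0.745, and 11 of 12 mitotic genes fell, with a median of -0.915, while 32.8% of all genes fell. In the 13 libraries 26 of 29 and 10 of 12 fell, with 51.1% of all genes passing in either direction. The replication genes summed to 1770 to 1810 CPM at E16.5, against 3060 to 3190 CPM at E9.5. Set against that sum, the 8 tested genes parted. For every 1000 CPM of replication genes there were 80.8 ± 7.41 CPM of Dnmt1 at E16.5, against 98.8 ± 13.6 at E9.5, and 46.5 ± 1.75 of Uhrf1, against 55.8 ± 0.866. For Dnmt1 the libraries overlapped on this scale. Replicate 1 of E9.5, the lone library of its stage among the 13, had 83.1, within the 73.4 to 90.3 of E16.5. Replicates 2 and 3 of E9.5, which stand apart, had 107 each. Dnmt3b stood at 3.66 ± 0.259, against 6.22 ± 1.25, and Tdg at 29.4 ± 2.16, against 45.9 ± 4.05. For Uhrf1, Dnmt3b and Tdg, replicate 1 of E9.5 (55.4, 4.86 and 41.6) lay above every library of E16.5. Dnmt3a stood at 108 ± 7.03 for E16.5, against 96.0 ± 10.2 for E9.5, with its highest mean, 129 ± 14.6 (n = 4), at E12.5. The Tet genes were higher on this scale: Tet3 stood at 46.2 ± 1.59, against 28.9 ± 2.84, Tet1 stood at 21.5 ± 0.859, against 11.1 ± 2.25, and Tet2 at 20.7 ± 2.42, against 9 ± 1.72 (SD, n = 4 at E16.5 and n = 3 at E9.5). The part of the replication genes' fall in the changes of the 8 genes was not tested.

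The methyl group comes from S-adenosylmethionine, and most genes of its supply fell. Of 12 listed, 8 fell and 1 rose at E16.5 against E9.5 (median -0.697), where 32.8% of all genes fell and 32.1% rose. Ahcy, which clears the by-product S-adenosylhomocysteine, had 101 ± 10.1 CPM (SD, n = 4) at E16.5, against 214 ± 4.03 CPM (n = 3) at E9.5, a log2 fold change of -1.08 ± 0.0746 (edgeR adjusted p = 1.69e-10). The folate cycle enzymes Shmt1 and Mthfd1 fell by 0.725 ± 0.0610 and 0.979 ± 0.0860 (edgeR adjusted p = 3.14e-09 and 5.90e-09). The 1 that rose was Mat2b, the regulatory subunit of the synthetase, at 0.350 ± 0.0655 (edgeR adjusted p = 0.000107). The 13 libraries gave 7 lower and 1 higher, with 51.1% of all genes passing there.

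The list of TET cofactors and modulators had 5 of 12 higher and 4 lower at E16.5 against E9.5 (median 0.116), near the shares of all genes (32.1% higher and 32.8% lower). TET enzymes need 2-oxoglutarate, which isocitrate dehydrogenases supply. Idh2, the mitochondrial form, had 1730 to 2100 CPM at E16.5, against 476 to 511 CPM at E9.5 (1.95 ± 0.0821, edgeR adjusted p = 1.60e-13), with a mean of 1080 CPM at E12.5. Idh3a, of the citric acid cycle, rose by 0.580 ± 0.0836 (edgeR adjusted p = 5.04e-06), and D2hgdh, which breaks down the TET inhibitor D-2-hydroxyglutarate, by 0.620 ± 0.0776 (edgeR adjusted p = 8.08e-07). Idh1, the cytosolic form, fell by 0.301 ± 0.078 (edgeR adjusted p = 0.00224), and Ogdh, which consumes 2-oxoglutarate, rose by 0.638 ± 0.0985 (edgeR adjusted p = 1.18e-05). Idh2, Idh3a and Ogdh are also enzymes of mitochondrial energy metabolism, and mitochondrially encoded genes held 4.65 to 6.44% of counts at E16.5, against 2.04 to 2.37% at E9.5. In the 13 libraries 5 rose and 3 fell, with 51.1% of all genes passing.

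The list of demethylation repair held 13 genes, with the factors Gadd45a, Gadd45b and Gadd45g among them. Of the 13, 7 were lower and 5 higher at E16.5 against E9.5 (median -0.309), where 32.8% of all genes were lower and 32.1% higher. Apex1, the nuclease that cuts the abasic site left by Tdg, fell by 0.968 ± 0.0679 (edgeR adjusted p = 2.21e-10). Parp1, which senses strand breaks, fell by 1.10 ± 0.0768 (edgeR adjusted p = 2.10e-10). Gadd45b, a stress-induced factor linked to demethylation, rose by 1.04 ± 0.102 (edgeR adjusted p = 3.05e-08), to 29.5 ± 3.45 CPM (SD, n = 4) at E16.5, against 14.4 ± 1.30 CPM (n = 3) at E9.5. The sum of the list was 471 to 505 CPM at E16.5, against 706 to 777 CPM at E9.5. In the 13 libraries 7 fell and 4 rose, with 51.1% of all genes passing.

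Of the readers of methylated CpG, 3 of 8 rose and 3 fell at E16.5 against E9.5 (median 0.159), near the shares of all genes (32.1% higher and 32.8% lower). Zbtb4, a zinc finger protein that binds methylated DNA, climbed at each stage, with means of 18.8 CPM in hearts of E9.5, 25.1 CPM in those of E10.5 and 39.7 CPM in those of E12.5. It reached 54.2 CPM by E14.5 and 62.8 CPM by E16.5, a rise of 1.74 ± 0.0866 over E9.5 (edgeR adjusted p = 1.52e-12). Its relative Zbtb38 rose by 0.814 ± 0.0819 (edgeR adjusted p = 4.06e-08). Mbd4, which joins a methyl-CpG domain to a glycosylase that, like Tdg, removes thymine from mismatches, fell by 0.926 ± 0.137 (edgeR adjusted p = 6.94e-06). The 13 libraries gave 5 higher and 2 lower, where 51.1% of all genes passed.

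Genes that protect imprinted methylation fell at E16.5 against E9.5, 5 of the 6 with enough reads of 7 listed (median -0.895), and 5 of 6 within the 13 libraries, while 32.8% of all genes fell over all libraries and 51.1% passed in either direction within the 13. Trim28, a corepressor, had 249 ± 6.11 CPM (SD, n = 4) at E16.5, against 492 ± 34.3 CPM (n = 3) at E9.5 (-0.979 ± 0.0638, edgeR adjusted p = 7.69e-11). Zfp57, the zinc finger protein that brings Trim28 to imprinted regions, fell by 1.03 ± 0.107 (edgeR adjusted p = 6.80e-08), and Setdb1, the histone methyltransferase of the same complex, by 0.810 ± 0.0781 (edgeR adjusted p = 2.21e-08). Germline genes known to be silenced by DNA methylation in other tissues were low, apart from Mov10l1. Of 14 listed, 7 had enough reads to be tested, 3 rose and 2 fell (median 0.418), near the shares of all genes (32.1% higher and 32.8% lower). Mov10l1, listed as a helicase of the germline small RNA pathway, was the 1 gene of this list above 5 CPM, with 47.4 to 58.8 CPM at E16.5, against 36.8 to 39.8 CPM at E9.5 (0.418 ± 0.0810, edgeR adjusted p = 0.000153). Counts per gene do not tell which transcripts of Mov10l1 were read, so its level does not show expression of the germline form. Within the 13 libraries 2 of 7 rose and 1 fell, with 51.1% of all genes passing.

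**Figure D5:**
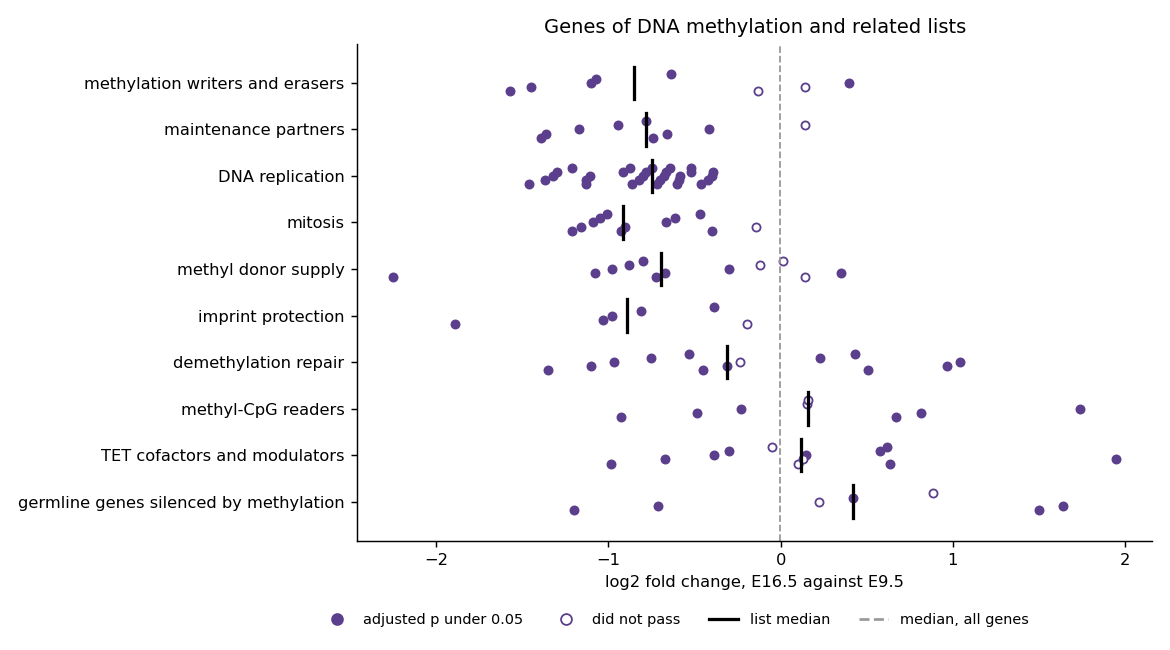
Log2 fold change of E16.5 against E9.5 (horizontal axis) of each tested gene in 10 lists, with filled points for those at an adjusted p under 0.05, a bar at each list's median and a dashed line at the median of all genes (-0.00519). Maintenance partners, replication and mitosis lie almost wholly below 0, while TET cofactors and methyl-CpG readers lie on both sides.

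Across the 18 libraries some of the genes ran together more closely than others, as a description of libraries that share stage and, in part, the difference of the 5. Pearson's r of log2 CPM was 0.959 between Dnmt1 and Uhrf1, 0.960 between Dnmt1 and Tdg and 0.954 between Dnmt1 and Dnmt3b. It was -0.0448 between Dnmt1 and Tet1, -0.351 between Dnmt1 and Tet2 and 0.746 between Dnmt1 and Tet3. Tet1 and Tet2 had 0.622 with each other. Dnmt3a had 0.821 with Tet3 and 0.757 with Dnmt3b, and Tet3 had 0.432 with Tet1 and 0.202 with Tet2, so no clean split separated the Tet genes from the rest.

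Among 10049 protein-coding genes with a mean of at least 10 CPM, the 3 closest to Dnmt1 by this r over 18 libraries were Clspn, an adaptor of the replication checkpoint (0.989), Acly (0.988) and Thrap3 (0.984). Closest to Uhrf1 were Coro1c (0.987), Srpk1 (0.985) and the helicase subunit Mcm4 (0.983). Genes close to Dnmt3a were Kirrel (0.987) and Kcnq5 (0.977), and those closest to Dnmt3b were Ccdc141, Afdn and E130308A19Rik (0.990 each). Tdg was closest to Itga6 (0.997), Mapk1ip1l (0.993) and Cstf2 (0.993). The Tet genes had looser neighbours. Tet1 was closest to the circadian factor Clock (0.921) and Strn (0.921), Tet2 to Jmjd1c (0.945), Phc3 (0.925) and Notch2 (0.897), and Tet3 to Wnk1 (0.953), Lcor (0.949) and Zfp507 (0.941).

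Transcripts that mark cell types also moved over the same days. Fibroblast markers (Col1a1, Col1a2, Col3a1, Pdgfra, Postn and Dcn) summed to 4570 to 5750 CPM at E16.5, against 262 to 348 CPM at E9.5, and macrophage markers (Csf1r, Cd68, Ptprc, Adgre1, Cx3cr1 and Mrc1) to 75.3 to 91.1 CPM, against 8.80 to 42.8 CPM. Red cell transcripts summed to 10700 to 23500 CPM at E16.5, against 5190 to 7970 CPM at E9.5, and to 16300 to 51000 CPM at E12.5. Heart muscle markers were at 19500 to 25500 CPM at E16.5, against 14200 to 16900 CPM at E9.5, and endothelial markers at 726 to 747 CPM, against 519 to 628 CPM. Members of a sum differed: Myh6 fell by 0.995 while Tnnt2 rose by 1.43, Kdr and Tek fell by 0.362 and 0.316 within a higher endothelial sum, and Nkx2-5 (-0.219) and Pdgfra (0.0141) did not pass. The part of these shifts in the changes of the 8 genes was not tested.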

How the data were processed

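The 18 files hold whole-number counts of reads per Ensembl gene, deposited by the authors with no normalization. Reads were trimmed with Trimmomatic 0.36, aligned with STAR 2.5.2b and counted with featureCounts from Subread 1.5.2 on GRCm38 (mm10), per the submitters' processing notes. RNA was extracted as total RNA, per the labels' protocols. Neither annotation release nor strand setting is given in the sources used here. Gene symbols, coordinates and exon lengths came from an annotation of GRCm38 that held 49056 of the 49315 identifiers. Rows without a gene name were kept under their identifier, and only the filter on low counts decided which rows entered the fit.

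Counts were fitted in edgeR 4.0.16 (R 4.3.3) with TMM scaling, the default filter on low counts by stage and robust quasi-likelihood tests over all 18 libraries. The filter left 18885 genes and removed 0.0381 to 0.054% of counts per library. P-values were adjusted by Benjamini-Hochberg over these genes, with a threshold of 0.05. Stage was the only term, each stage was compared with the one before it, and E16.5 with E9.5. CPM use TMM-scaled totals, and RPKM divide them by the length of all exons of a gene. The 24 pairs of libraries of one stage differed beyond counting noise (chi-square divided by its degrees of freedom was 6.06 to 79.8), so none was treated as a repeat deposit of another, which does not show that they are from separate embryos. Alternatives covered scaling, filtering, DESeq2 1.42.0, limma-voom (limma 3.58.1), the samples in the fit, a replicate block, the libraries that stand apart and leaving out each library. Fits within only the 5 libraries that stand apart were added after seeing the data. The floor of 3 counts covers counting error only.

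The members and lists were chosen with earlier results of these data known. Named partners are at most the 3 of each list with the smallest adjusted p at E16.5 against E9.5 among those that changed and averaged 5 CPM or more at either stage, plus those that share a role with a member. Zbtb24 and Mat2b, the 1 exception of their lists, and Idh1, Ogdh and the single cell type markers were named after their values were seen. Likeness was taken for members averaging at least 5 CPM, on log2 CPM with a prior count of 2. Some of the closest genes are not reported here. The scripts were tested on simulated data.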

Additional observations from a re-analysis of the deposited data

Results flagged for a closer look

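Among 27 sets of 4 libraries (9 genes at E10.5, E12.5 and E16.5), 2 held a library far from the other 3, and chance alone sets off about 1 such set in 20. Tdg was at 46.4 CPM in replicate 1 of E16.5, with the other replicates at 54.3 to 55.7 CPM, and the gap to the nearest took up 0.849 of the whole range. Tdg passed at E16.5 against E14.5 with any 1 library left out. Dnmt3l was at 0.162 CPM in replicate 2 of E12.5, which is 6 counts, with 0, 0.0227 and 0 CPM in the others, and the gap took up 0.86 of the range.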

How the results depend on the processing

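Of 40 fold changes (8 genes, 5 comparisons), 21 passed. The 5 falls at E16.5 against E9.5 and those of Dnmt1, Dnmt3b, Uhrf1 and Tdg at E12.5 against E10.5 passed under all alternatives run. The number of the 8 genes passing moved elsewhere. At E10.5 against E9.5, where 1 passed, 0 passed with no filter on low counts, with only the 2 stages in the fit or with the replicate number as a block. There 2 passed with at least 10 CPM in 3 libraries or with DESeq2, 4 with the libraries that stand apart as a term, 5 within only those 5 libraries, and 0 to 2 with 1 library left out. At E12.5 against E10.5, where 7 passed, 4 did without the 5 libraries, and 4 to 7 with 1 library left out. The falls of Dnmt3a and Tet3 at this step were also lost with no filter on low counts and with only the 2 stages in the fit. They were lost as well with mitochondrial and globin genes removed. At E14.5 against E12.5, 2 passed instead of 4 with library totals only: these were Tet1 and Tet2, and the falls of Dnmt1, Dnmt3a and Uhrf1 were lost. The fall of Uhrf1 was also lost with only the 2 stages in the fit. With 1 library left out, 1 (without replicate 3 of E14.5) to 7 (without replicate 1 of E9.5) passed at this step. At E16.5 against E14.5, where 3 passed, 1 to 4 did so with 1 library left out, and Uhrf1 was lost with no filter on low counts. The cause of these shifts was not tested.

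Over all genes, 3446 passed at E10.5 against E9.5, but 1215 without the 5 libraries, 6460 within only those 5, and 2260 (without replicate 3 of E9.5) to 3839 with 1 library left out. At E14.5 against E12.5, 1771 to 3425 genes passed with 1 library left out (2803 over all), and at E16.5 against E14.5, 2058 to 4210 (3562 over all).

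Signs turned in fold changes near 0. Tet2 at E12.5 against E10.5 (0.0186) was -0.0032 with library totals only and -0.0405 to 0.0985 with 1 library left out. Tet3 at E14.5 against E12.5 (-0.0221) was 0.0509 with library totals only, 0.0208 with at least 10 CPM in 3 libraries, 0.0237 without the 5 libraries, 0.0248 with them as a term and -0.0739 to 0.0231 with 1 library left out. At E10.5 against E9.5, leaving out 1 library gave -0.0707 to 0.115 for Dnmt1 and -0.0368 to 0.269 for Tet1, and Uhrf1 was -0.00197 within only the 5 libraries. Tet1 at E16.5 against E9.5 ran from -0.00935 to 0.301. Without the 5 libraries Tet3 at E16.5 against E9.5 was 0.0838, and Dnmt3b at E10.5 against E9.5, the 1 called change that turned, was 0.0178. With library totals only, the median of all genes at E16.5 against E14.5 was -0.151, against -0.0238 with TMM scaling.

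No pairing of libraries by replicate number was seen: of 33 pairs with the same number, 8 had deviations from their stage means that correlated over 0.1. These correlations ran from -0.639 to 0.498 (median -0.0205), and those between different numbers from -0.638 to 0.663 (median 0.00398). The libraries that stand apart carry differing numbers by stage and enter these correlations, so the check cannot exclude pairing. With the replicate number as a block, 3286 genes passed at E10.5 against E9.5 and 11927 at E16.5 against E9.5. The depth limits only Dnmt3l, whose counts lay at or under 6.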
